A study of Mus musculus with 9 samples.

Results

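Cell cycle regulators and replication genes were followed in 3 cell populations sorted from the fetal mouse testis at 12.5 days post coitum (dpc), named Leydig, Interstitial and Sertoli. The 51 genes were listed by symbol, matched to the Ensembl identifiers of the deposited count table, and make up 51 of its 38560 genes. They were grouped by the phase in which their products act: 5 G1 cyclins and kinases, 6 inhibitors of cyclin-dependent kinases (CDKs), 3 pocket proteins, 8 E2F transcription factors, 3 cyclin and kinase genes of the G1/S transition, 11 genes of origin licensing and firing, 3 of DNA synthesis and 12 of G2 and mitosis. All embryos carried the Sf1-eGFP transgene, a green fluorescent reporter under the control of the gene for steroidogenic factor 1, so that no group came from mice without it. Gonads with testis cords were dissociated, and cells stained for CD31 were removed before RNA was taken, a step meant to deplete germ and endothelial cells. The sources used here do not give the fluorescence gates that told the 3 populations apart. Each population had 3 libraries of total RNA, replicates A, B and C, and an RNA sample pooled about 10 sorting experiments. Per the protocol, 1 of the 3 RNAs of a population was a mix of the other 2. Replicate C was taken by elimination as that mix, and it is described but was not tested.

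Cells enter the cycle when D-type cyclins with Cdk4 or Cdk6, and then E-type cyclins with Cdk2, phosphorylate the pocket proteins and free the E2F factors to drive genes of DNA replication. Replication origins are licensed in G1 when Cdc6 and Cdt1 load the ring of Mcm2 to Mcm7, and the ring becomes an active helicase in S phase with Cdc45. Mitosis is driven by Cdk1 with cyclin B, while CDK inhibitors of the Cip/Kip and INK4 families hold these kinases back. In the fetal testis, Sertoli cells proliferate while they enclose germ cells in cords, and fetal Leydig cells are regarded as largely non-dividing cells that arise from dividing interstitial progenitors.

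Between 33.12 and 39.24 M reads (M, 1e6) fell in genes in each library. The limit that a count of 0 allows, 3 reads, therefore equals 0.0764 to 0.0906 CPM (counts per 1e6 gene reads). Such limits cover counting error only. Mitochondrial genes took 15.5 to 20.25% of these reads. Each population also held RNA of the markers of the others. Sertoli markers (10 genes, such as Amh and Sox9) summed to 1070 to 1110 CPM in Leydig libraries, to 176 to 204 CPM in Interstitial libraries and to 3600 to 3790 CPM in Sertoli libraries. Fetal Leydig markers (8 genes, such as Star and Cyp11a1) summed to 449 to 688 CPM in Leydig libraries, to 111 to 131 CPM in Interstitial libraries and to 663 to 711 CPM in Sertoli libraries. Nr5a1 was the largest term, at 188 to 210 CPM in Leydig libraries and 365 to 387 CPM in Sertoli libraries. All 8 genes were called higher in Leydig over Interstitial, where 22.0% of all genes tested were. In Leydig over Sertoli, 7 of the 8 log2 fold changes were positive, with a median of 0.16. Of these 8 genes, 0 were called higher there and 1, Nr5a1, was called lower, against 16.9% and 20.6% of all genes tested. The calls therefore do not set the Leydig libraries apart from the Sertoli libraries by these markers. The names Leydig, Interstitial and Sertoli below therefore stand for the libraries so labelled.

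Interstitial libraries had the highest mean level of most of these genes and Sertoli libraries the lowest, with Leydig libraries between them. This order of mean CPM (A and B) held for 30 of the 51 genes. The reverse order, with the lowest level in Interstitial libraries, held for 9 genes: Ccnd1, Ccnd2, Cdkn1b, Cdkn2c, Cdkn2d, Rbl2, E2f6, Cdk1 and Plk1. All 51 genes passed the filter on low counts, and each population was compared by edgeR's quasi-likelihood test on replicates A and B, with p-values adjusted by the Benjamini-Hochberg method over all 18048 genes tested and calls made at an adjusted p of 0.05. Each replicate is a pool of many litters, so the spread behind these p-values is that of 2 pools per population and not that of animals.

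In Leydig over Sertoli, 25 of the 51 genes were higher, 3 were lower and 23 were not called, where 16.9% of all genes tested were called higher and 20.6% lower, 37.5% in all. The median log2 fold change of the 51 genes was 0.23, against -0.01 over all genes tested. In Leydig over Interstitial, 6 genes were higher, 26 were lower and 19 were not called, where 22.0% of all genes were higher and 23.2% lower, 45.1% in all. The median was -0.27 for the 51 genes and 0.01 over all genes. In Interstitial over Sertoli, 34 genes were higher, 7 were lower and 10 were not called, where 32.7% of all genes were higher and 29.1% lower, 61.8% in all. Here the median was 0.52 for the 51 genes and 0.04 over all genes. The 3 comparisons share libraries, each population entering a pair of them, so their counts are not independent of each other. Scaling to library size alone moved the median of all genes by 0.10 in Leydig over Sertoli and by 0.17 in Interstitial over Sertoli. Under that scaling 31 genes were higher and 2 lower in Leydig over Sertoli, and 37 were higher and 6 lower in Interstitial over Sertoli. Of all calls in the table, it moved the share that was higher to 58.8%, against 45.1% with TMM, in Leydig over Sertoli, and to 65.2%, against 52.9%, in Interstitial over Sertoli.

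**Figure D1:**
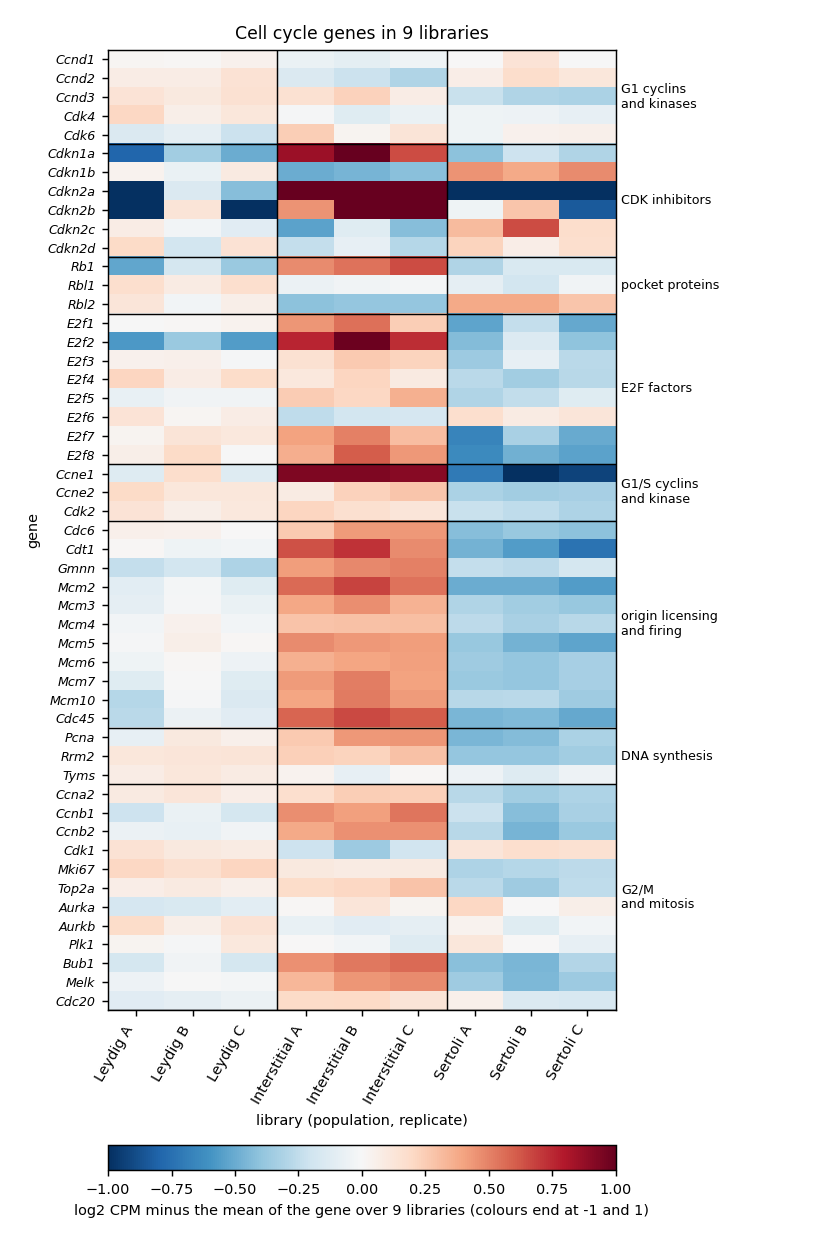
Level of each of the 51 genes (rows, by phase group) in each of the 9 libraries (columns), as log2 of TMM-normalised CPM minus the mean of that gene over the 9 libraries; red is above and blue below that mean, and colours end at -1 and 1. The 11 licensing and firing genes are red in the 3 Interstitial libraries and blue in the 3 Sertoli libraries, while Cdkn1b, Rbl2 and Cdk1 are blue in the Interstitial libraries.

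The heat map of levels by library shows the phase groups that changed as blocks and those that did not. The licensing and firing genes form a uniform block, whereas the CDK inhibitors and the pocket proteins hold genes of opposite direction. The plot of fold changes gives the same genes as log2 fold changes with their standard errors.

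**Figure D2:**
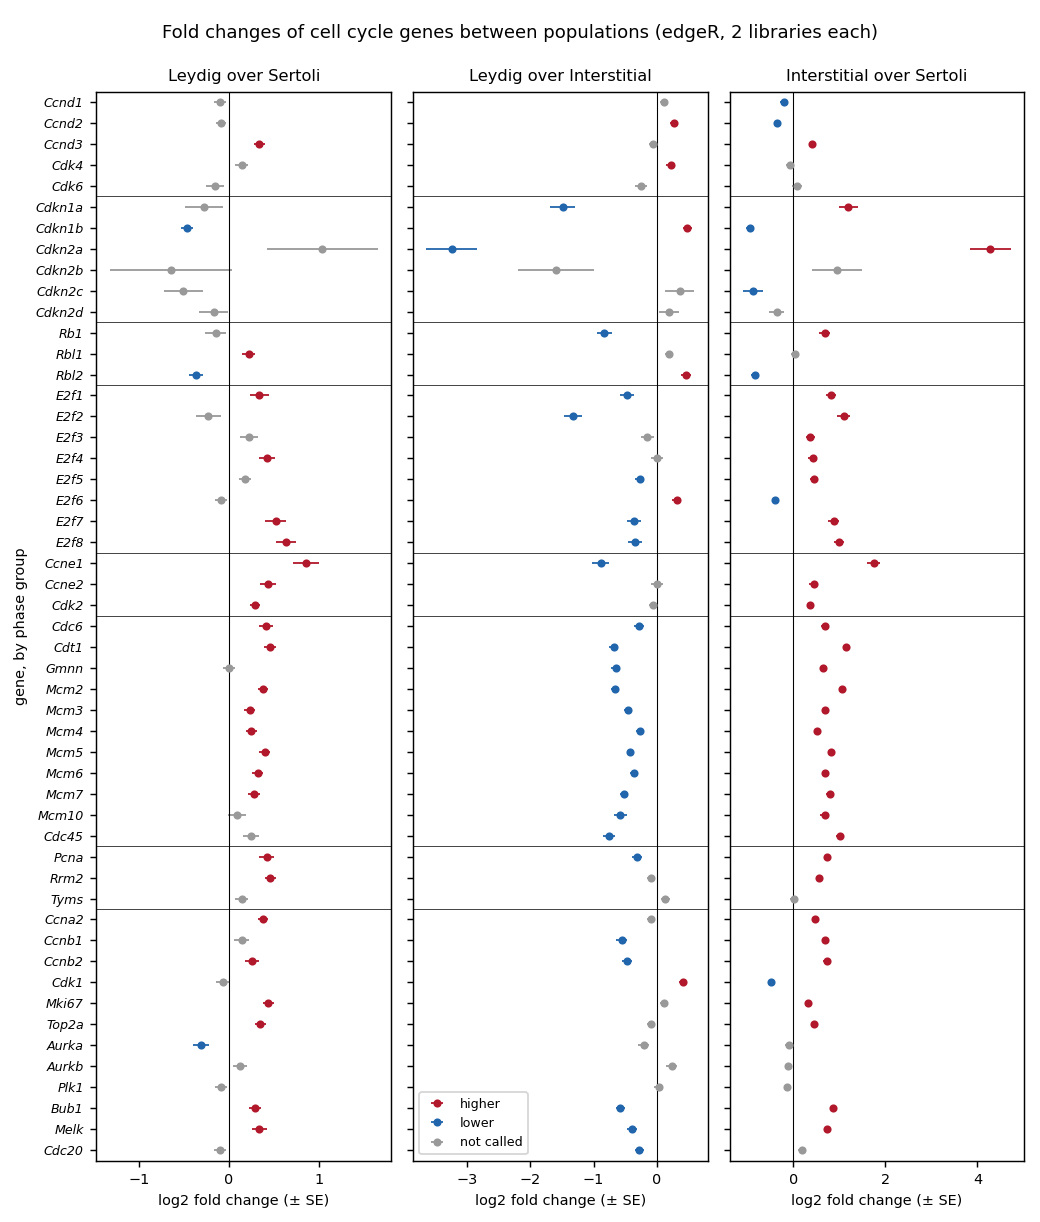
Log2 fold change (horizontal axis, ± SE) of each gene (rows, by phase group) in Leydig over Sertoli, Leydig over Interstitial and Interstitial over Sertoli, from edgeR on 2 libraries per population; red points were called higher, blue points lower and grey points not called. The horizontal scales differ between panels; the widest values belong to Cdkn2a, at -3.24 in Leydig over Interstitial and 4.28 in Interstitial over Sertoli.

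The G1 cyclins and kinases had small log2 fold changes, -0.36 to 0.40 over the 3 comparisons. Of these 5 genes, 1 was higher and 0 lower in Leydig over Sertoli, 2 were higher and 0 lower in Leydig over Interstitial, and 1 was higher and 2 lower in Interstitial over Sertoli. With 37.5%, 45.1% and 61.8% of all genes called in these comparisons, the counts against Interstitial and in Interstitial over Sertoli are near the share of all genes. The 3 D cyclins, which receive mitogen signals and activate Cdk4 and Cdk6, did not follow each other. Ccnd3 (chr17:47505051-47599691, plus strand, GRCm38) was at 111, 108 and 112 CPM in Leydig libraries A, B and C, at 112, 118 and 106 CPM in Interstitial libraries and at 86.1, 81.6 and 80.8 CPM in Sertoli libraries. Every Sertoli library was below every other library, and the Leydig and Interstitial libraries overlapped. It had a log2 fold change of 0.34 ± 0.06 in Leydig over Sertoli (adjusted p = 0.00253) and 0.40 ± 0.06 in Interstitial over Sertoli (adjusted p = 0.000534), and -0.06 ± 0.06 in Leydig over Interstitial (adjusted p = 0.486).

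Ccnd2 was at 149, 149 and 156 CPM in Leydig libraries, at 128, 122 and 115 CPM in Interstitial libraries and at 148, 160 and 153 CPM in Sertoli libraries. The Interstitial libraries were the low ones, with no overlap with either other population. Its log2 fold change was 0.27 ± 0.06 in Leydig over Interstitial (adjusted p = 0.00686), a call that was lost without Interstitial replicate B, where it was 0.22. In Interstitial over Sertoli it was -0.36 ± 0.06 (adjusted p = 0.000919), and in Leydig over Sertoli -0.09 ± 0.06 (adjusted p = 0.31). Ccnd1 was nearly level, at 67.3, 66.9 and 68.5 CPM in Leydig libraries, 63.6, 62.1 and 64.6 CPM in Interstitial libraries and 66.6, 73.2 and 66.2 CPM in Sertoli libraries. Its 1 call was in Interstitial over Sertoli, at a log2 fold change of -0.21 ± 0.07 (adjusted p = 0.0244), and 8 of the alternative analyses lost it, with values of -0.17 to -0.04. Ccnd1 shares 1100 exon bases with LTO1 on the opposite strand, and the sources used here do not say whether the counting used strand.

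Levels per kilobase of exon (RPKM, from the CPM) separated the kinases more than any comparison between populations did. Cdk4 averaged 101 RPKM over the 9 libraries and Cdk6 1.24 RPKM, an 81.6-fold difference. Cdk4 made up 98.6 to 99.1% of the 2 kinases' summed RPKM in every library. Exons of Tspan31 on the opposite strand cover 19.7% of the exon bases of Cdk4. Tspan31 had at most 3041 reads in a library and Cdk4 at most 13122, so the limit of strand applies to Cdk4 as well. The length used, merged exons of all annotated transcripts, was 3249 bases for Cdk4 and 13989 bases for Cdk6. Ratios and shares of RPKM between genes depend on such lengths. Ccnd2, Ccnd1 and Ccnd3 averaged 15.1, 14.1 and 11.6 RPKM over merged exons of 9409, 4709 and 8775 bases, so their order depends on these lengths. Ccnd3 made up 29.0 to 29.5% of the summed RPKM of the D cyclins in Leydig libraries, 31.8 to 33.8% in Interstitial libraries and 22.3 to 24.7% in Sertoli libraries. The call of Cdk4 in Leydig over Interstitial, at a log2 fold change of 0.22 ± 0.07 (adjusted p = 0.0329), was lost in 6 alternatives, 5 of which left out a library. Cdk6 was not called in any comparison.

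**Figure D3:**
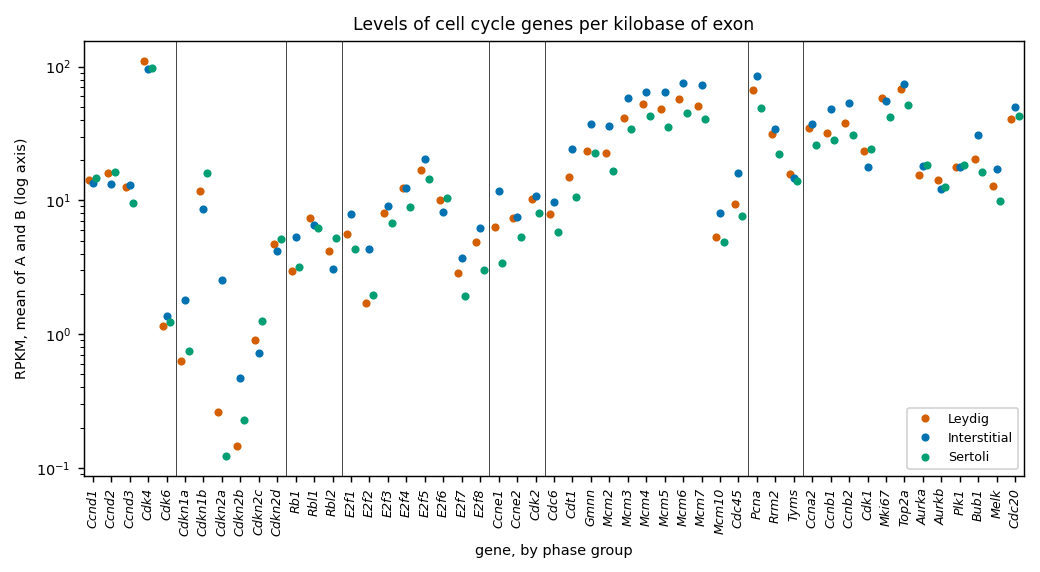
Level of each gene as RPKM (vertical log axis), the mean of replicates A and B, in Leydig, Interstitial and Sertoli libraries; vertical lines part the phase groups. Cdk4 and Pcna lie at the top, with means over 9 libraries of 101 and 68.3 RPKM, and Cdkn2b lies at the bottom with 0.274 RPKM.

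The CDK inhibitors included genes called in each direction, and no population had more of all of them. Of these 6 genes, 0 were higher and 1 lower in Leydig over Sertoli, 1 was higher and 2 lower in Leydig over Interstitial, and 2 were higher and 2 lower in Interstitial over Sertoli. The counts in both comparisons with Interstitial are near the shares over all genes, 45.1% in Leydig over Interstitial and 61.8% in Interstitial over Sertoli, so they show nothing particular to these genes. Cdkn1b (chr6:134920401-134925513, plus strand), which encodes p27, an inhibitor of Cdk2 with cyclin E or A, was the most abundant of them at 12.3 RPKM. It was at 55.7, 51.8 and 57.7 CPM in Leydig libraries, at 38.5, 39.4 and 40.7 CPM in Interstitial libraries and at 74.1, 70.7 and 75.4 CPM in Sertoli libraries. The 3 populations did not overlap, with Sertoli libraries highest and Interstitial libraries lowest. Cdkn1b was 1.39-fold lower in Leydig over Sertoli (log2 fold change -0.47 ± 0.07, adjusted p = 0.000723) and 1.39-fold higher in Leydig over Interstitial (0.48 ± 0.07, adjusted p = 0.000785). In Interstitial over Sertoli it was 1.93-fold lower (-0.95 ± 0.07, adjusted p = 5.59e-06).

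Cdkn1a (chr17:29090976-29100727, plus strand) encodes p21, the Cip/Kip inhibitor that p53 induces. It was at 1.90, 2.59 and 2.33 CPM in Leydig libraries, at 5.94, 6.81 and 5.17 CPM in Interstitial libraries and at 2.47, 2.85 and 2.67 CPM in Sertoli libraries. Interstitial libraries were above all others, and Leydig and Sertoli libraries overlapped. The fitted log2 fold change was -1.49 ± 0.20 in Leydig over Interstitial (adjusted p = 0.000573) and 1.20 ± 0.20 in Interstitial over Sertoli (adjusted p = 0.000748), and -0.28 ± 0.21 in Leydig over Sertoli (adjusted p = 0.346).

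The largest fold changes of the 51 genes belonged to Cdkn2a (chr4:89274471-89294653, minus strand), which encodes the INK4 inhibitor p16 and, from another reading frame, p19ARF, an activator of p53. Counts per gene do not separate these transcripts. It had 5, 16 and 14 reads in Leydig libraries, 132, 91 and 128 reads in Interstitial libraries and 4, 6 and 6 reads in Sertoli libraries. In CPM these are 0.150, 0.461 and 0.379 in Leydig libraries, 3.27, 2.65 and 3.18 in Interstitial libraries and 0.112, 0.176 and 0.162 in Sertoli libraries. Interstitial libraries were above all others, and Leydig and Sertoli libraries overlapped at a few reads each. The log2 fold change was -3.24 ± 0.40 in Leydig over Interstitial (adjusted p = 0.000353) and 4.28 ± 0.45 in Interstitial over Sertoli (adjusted p = 5.41e-05), and 1.04 ± 0.62 in Leydig over Sertoli (adjusted p = 0.231). Its call in Leydig over Interstitial held without either Leydig library, but the value moved to -2.66 without Leydig replicate A and to -4.26 without Leydig replicate B. Cdkn2a made up 0.666 to 2.22% of the summed RPKM of the 6 inhibitors in Leydig libraries, 12.1 to 15.7% in Interstitial libraries and 0.402 to 0.651% in Sertoli libraries.

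Its neighbour Cdkn2b, which encodes the INK4 inhibitor p15, had 3, 11 and 4 reads in Leydig libraries, 16, 31 and 33 in Interstitial libraries and 10, 12 and 6 in Sertoli libraries. It was not called in any comparison. Its log2 fold change was -1.60 ± 0.60 in Leydig over Interstitial (adjusted p = 0.0578) and 0.95 ± 0.55 in Interstitial over Sertoli (adjusted p = 0.167), and in Leydig over Sertoli -0.65 ± 0.68 (adjusted p = 0.5). The 3 Interstitial libraries lay above the other 6 in CPM, and the call in Leydig over Interstitial varied with the analysis. Among the alternatives it was called lower in 5, at log2 fold changes of -2.77 to -1.61, and not called in the others that tested it, where the value was as small as -0.94 without Interstitial replicate B.

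Cdkn2c, which encodes p18 of the same family, was at 2.53, 2.36 and 2.22 CPM in Leydig libraries, 1.66, 2.21 and 1.79 CPM in Interstitial libraries and 3.00, 3.79 and 2.72 CPM in Sertoli libraries. The 3 populations did not overlap, though Leydig and Interstitial libraries nearly touched. Its call was in Interstitial over Sertoli, at a log2 fold change of -0.87 ± 0.22 (adjusted p = 0.00828). That call was lost without Interstitial replicate A and without Sertoli replicate B, where the values were -0.70 to -0.62. In Leydig over Sertoli it was -0.51 ± 0.22 (adjusted p = 0.102) and in Leydig over Interstitial 0.36 ± 0.23 (adjusted p = 0.236).

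Cdkn2d, which encodes p19INK4d, was the second most abundant inhibitor at 4.73 RPKM. It was at 8.42, 6.51 and 8.14 CPM in Leydig libraries, 6.26, 6.96 and 6.07 CPM in Interstitial libraries and 8.59, 7.72 and 8.29 CPM in Sertoli libraries. Leydig libraries overlapped both others, and no comparison called it. The log2 difference between populations was -0.17 ± 0.16 in Leydig over Sertoli (adjusted p = 0.45), 0.19 ± 0.16 in Leydig over Interstitial (adjusted p = 0.363) and -0.36 ± 0.16 in Interstitial over Sertoli (adjusted p = 0.0772).

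**Figure D4:**
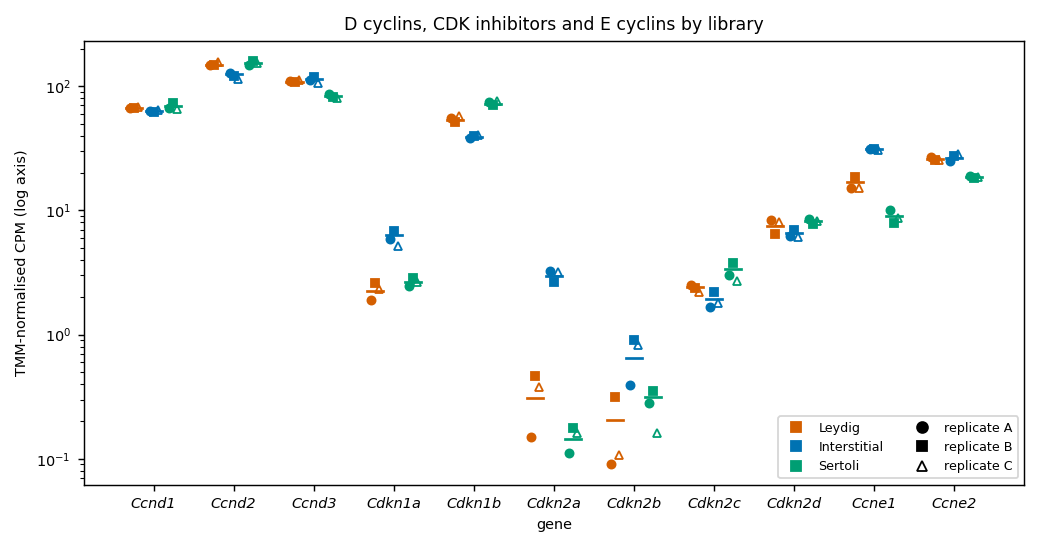
TMM-normalised CPM (vertical log axis) of the D cyclins, CDK inhibitors and E cyclins in each library; circles, squares and open triangles are replicates A, B and C, and the short lines mark the mean of A and B. Cdkn1b and Ccne1 are ordered the opposite way round, with Cdkn1b at 38.5 to 40.7 CPM and Ccne1 at 30.9 to 31.5 CPM in Interstitial libraries, against 70.7 to 75.4 CPM and 7.86 to 10.1 CPM in Sertoli libraries.

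The 3 pocket proteins, which bind E2F factors and repress their targets, went 3 ways. Of them 1 was higher and 1 lower in each of the 3 comparisons. All genes were called at 37.5% in Leydig over Sertoli, 45.1% in Leydig over Interstitial and 61.8% in Interstitial over Sertoli. The count in the last of these is near that share. Rb1, the retinoblastoma gene (chr14:73183673-73325822, minus strand), was at 15.7, 19.9 and 17.4 CPM in Leydig libraries, at 31.1, 32.8 and 35.3 CPM in Interstitial libraries and at 18.2, 20.2 and 20.2 CPM in Sertoli libraries. Interstitial libraries stood above both others, which overlapped. Its log2 fold change was -0.83 ± 0.12 in Leydig over Interstitial (adjusted p = 0.000739) and 0.68 ± 0.12 in Interstitial over Sertoli (adjusted p = 0.00103), and -0.15 ± 0.12 in Leydig over Sertoli (adjusted p = 0.371). Exons of Rcbtb2 and Lpar6 on the opposite strand cover 8.1% and 6.8% of its exon bases, and Rcbtb2 had at most 3887 reads in a library and Rb1 at most 1418, so its level is uncertain if the counting ignored strand.

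Rbl2, which encodes p130, the pocket protein of resting cells, was ordered as Cdkn1b was. Leydig libraries held 33.1, 29.9 and 31.7 CPM, Interstitial libraries 23.0, 23.3 and 23.3 CPM and Sertoli libraries 39.6, 39.6 and 37.0 CPM, with no overlap between populations. The log2 fold change was -0.37 ± 0.08 in Leydig over Sertoli (adjusted p = 0.00575), 0.46 ± 0.08 in Leydig over Interstitial (adjusted p = 0.00201) and -0.83 ± 0.08 in Interstitial over Sertoli (adjusted p = 3.03e-05). Without Leydig replicate B, the call in Leydig over Sertoli was lost at -0.26. Exons of Aktip on the opposite strand cover 9.2% of the exon bases of Rbl2. Aktip had at most 879 reads in a library and Rbl2 at most 1410, so the level of Rbl2 has the same limit. Rbl1, which encodes p107, was called higher in Leydig over Sertoli at a log2 fold change of 0.22 ± 0.07 (adjusted p = 0.0434), and 4 alternatives lost that call.

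Among the 8 E2F factors, 4 were higher and 0 lower in Leydig over Sertoli, 1 was higher and 5 were lower in Leydig over Interstitial, and 7 were higher and 1 was lower in Interstitial over Sertoli. Their median log2 fold change was 0.28, -0.31 and 0.63 in these comparisons, in that order. Of all genes, 16.9%, 22.0% and 32.7% were called higher and 20.6%, 23.2% and 29.1% lower. The 5 lower in Leydig over Interstitial became 2 without Leydig replicate A, 3 without Interstitial replicate A and 2 without Interstitial replicate B, with calls of E2f1, E2f5, E2f7 and E2f8 lost in 1 or more of these. The 4 higher in Leydig over Sertoli became 2 without Sertoli replicate A, where E2f1 and E2f7 were lost. E2f2 (chr4:136172394-136196057, plus strand), an activator, was at 7.73, 8.93 and 7.84 CPM in Leydig libraries, at 19.6, 22.7 and 19.2 CPM in Interstitial libraries and at 8.53, 10.5 and 8.72 CPM in Sertoli libraries. Interstitial libraries were above all others, and Leydig and Sertoli libraries overlapped. E2f2 was 2.51-fold lower in Leydig over Interstitial (-1.33 ± 0.14, adjusted p = 0.000153) and 2.14-fold higher in Interstitial over Sertoli (1.10 ± 0.14, adjusted p = 0.000149), with -0.23 ± 0.14 in Leydig over Sertoli (adjusted p = 0.252).

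E2f8, an atypical factor that represses E2F targets late in the cycle, was at 25.1, 27.6 and 24.1 CPM in Leydig libraries, at 31.1, 36.7 and 32.5 CPM in Interstitial libraries and at 15.5, 17.3 and 16.6 CPM in Sertoli libraries. The 3 populations did not overlap. It had a log2 fold change of 0.64 ± 0.11 in Leydig over Sertoli (adjusted p = 0.00192), -0.35 ± 0.11 in Leydig over Interstitial (adjusted p = 0.0265) and 0.99 ± 0.11 in Interstitial over Sertoli (adjusted p = 7.08e-05). Without Leydig replicate A and without Interstitial replicate B its value against Interstitial was -0.28 to -0.24 and not called. The factor that ran against the others was E2f6, a repressor that acts without the pocket proteins. Named after its values were seen, it was at 59.6, 55.0 and 57.1 CPM in Leydig libraries, at 45.4, 47.8 and 48.3 CPM in Interstitial libraries and at 60.8, 57.3 and 59.1 CPM in Sertoli libraries. Interstitial libraries were below all others, and Leydig and Sertoli libraries overlapped. E2f6 had a log2 fold change of 0.31 ± 0.07 in Leydig over Interstitial and of -0.40 ± 0.07 in Interstitial over Sertoli (adjusted p = 0.00825 and 0.00142); the call in Leydig over Interstitial was lost without Interstitial replicate A, at 0.27.

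All 3 genes of the G1/S transition were higher in Leydig over Sertoli and in Interstitial over Sertoli, and 1 was lower in Leydig over Interstitial. The matching shares of all genes were 16.9%, 32.7% and 23.2%. Ccne1 (chr7:38097984-38107534, minus strand), which encodes cyclin E1, the partner of Cdk2 at S phase entry, was the gene that parted all 3 populations most widely in this group. Leydig libraries held 15.1, 18.6 and 15.1 CPM, Interstitial libraries 31.5, 31.5 and 30.9 CPM and Sertoli libraries 10.1, 7.86 and 8.70 CPM. No populations overlapped. Ccne1 was 1.82-fold higher in Leydig over Sertoli (0.86 ± 0.14, adjusted p = 0.00159), 1.85-fold lower in Leydig over Interstitial (-0.89 ± 0.13, adjusted p = 0.00101) and 3.36-fold higher in Interstitial over Sertoli (1.75 ± 0.14, adjusted p = 1.05e-05).

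Its paralogue Ccne2 did not differ detectably between Leydig and Interstitial libraries, with a log2 fold change of 0.00 ± 0.09 (adjusted p = 0.977), and its log2 fold change over Sertoli was 0.44 ± 0.09 in both. As a share of the summed RPKM of the E cyclins, Ccne1 made up 42.6 to 49.1% in Leydig libraries, 58.9 to 62.5% in Interstitial libraries and 36.0 to 41.4% in Sertoli libraries. Ints8 overlaps 17.4% of the exon bases of Ccne2 on the opposite strand. It had at most 3561 reads in a library and Ccne2 at most 1140. The level of Ccne2 and these shares are therefore uncertain if the counting ignored strand. Cdk2 had log2 fold changes of 0.29 ± 0.06 in Leydig over Sertoli, 0.37 ± 0.06 in Interstitial over Sertoli and -0.07 ± 0.06 in Leydig over Interstitial, where it was not called.

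Origin licensing and firing was the group with the most even change. Of its 11 genes, 8 were higher and 0 lower in Leydig over Sertoli, 0 were higher and 11 lower in Leydig over Interstitial, and 11 were higher and 0 lower in Interstitial over Sertoli. The median log2 fold changes were 0.28, -0.52 and 0.70. Among all genes tested, 16.9%, 22.0% and 32.7% were higher and 20.6%, 23.2% and 29.1% lower in these comparisons. Summed over the group, Leydig libraries held 1340 to 1420 CPM, Interstitial libraries 1890 to 1970 CPM and Sertoli libraries 1080 to 1100 CPM. Gmnn, the inhibitor of Cdt1, did not join the others in Leydig over Sertoli, at a log2 fold change of 0.00 ± 0.07 (adjusted p = 0.994), and Mcm10 and Cdc45 were not called there either. The 8 genes higher in Leydig over Sertoli became 5 without Sertoli replicate B. The calls of Mcm3, Mcm4 and Mcm7 were the ones lost, at 0.21 to 0.29 over the fits that lost them, and those of Mcm3 and Mcm7 also without Sertoli replicate A.

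Cdt1 (chr8:122568015-122573554, plus strand), which loads the Mcm ring, was at 48.0, 46.1 and 46.5 CPM in Leydig libraries, at 73.7, 78.4 and 65.9 CPM in Interstitial libraries and at 34.2, 32.3 and 28.4 CPM in Sertoli libraries. The populations did not overlap. Its log2 fold change was 0.46 ± 0.07 in Leydig over Sertoli (adjusted p = 0.00111), -0.68 ± 0.07 in Leydig over Interstitial (adjusted p = 0.000145) and 1.14 ± 0.07 in Interstitial over Sertoli (adjusted p = 2.2e-06). Cdc45, which joins the ring when it fires, was at 30.3, 35.2 and 33.9 CPM in Leydig libraries, at 54.7, 57.7 and 55.7 CPM in Interstitial libraries and at 26.7, 27.0 and 25.7 CPM in Sertoli libraries. These did not overlap either. Exons of Ufd1 on the opposite strand cover 6.0% of the exon bases of Cdc45. Ufd1 had at most 2101 reads in a library and Cdc45 at most 2238, so the same limit of strand applies. The log2 fold change of Cdc45 was -0.76 ± 0.09 in Leydig over Interstitial (adjusted p = 0.000237) and 1.01 ± 0.09 in Interstitial over Sertoli (adjusted p = 1.65e-05). In Leydig over Sertoli it was 0.25 ± 0.09 (adjusted p = 0.0587), which 9 alternatives called.

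The 6 genes of the Mcm2 to Mcm7 ring, whose products join in equal numbers, were all highest in Interstitial and lowest in Sertoli libraries, with no overlap between populations. Their log2 fold changes were 0.23 to 0.40 in Leydig over Sertoli, -0.67 to -0.27 in Leydig over Interstitial and 0.52 to 1.05 in Interstitial over Sertoli. Mcm2, chosen after its values were seen, was at 152, 161 and 150 CPM in Leydig libraries, at 242, 260 and 238 CPM in Interstitial libraries and at 116, 116 and 111 CPM in Sertoli libraries. It had the widest of these in both comparisons with Interstitial, -0.67 ± 0.06 in Leydig over Interstitial and 1.05 ± 0.06 in Interstitial over Sertoli. It made up 8.08 to 8.25% of the ring's summed RPKM in Leydig libraries, 9.39 to 9.91% in Interstitial libraries and 7.50 to 7.92% in Sertoli libraries. Levels of the 6 genes per kilobase were not equal: Mcm6 averaged 59.7 RPKM and Mcm2 24.7 RPKM, a 2.42-fold difference. That ratio depends on merged exons of 4666 bases for Mcm6 and 6956 bases for Mcm2. Mean CPM (A and B) of Mcm6 and Mcm2 was 269 and 156 in Leydig libraries and 353 and 251 in Interstitial libraries. In Sertoli libraries it was 210 and 116.

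The promoters of these genes were read from RefSeq (GRCm38.p6) as windows of 300 bases, from 250 before to 50 after the start, on the strand of the gene. Windows were at hand for 41 of the 51 genes, and a gene with several windows was counted as holding a motif if any of them did. Motifs were searched on both strands. The E2F type was read as TTCCCGC and its variants spelled TTCGCGC, likewise TTGCCGC, and finally TTGGCGC. The CHR, an element known from genes of G2 and mitosis, was read as TTTGAA. The CCAAT box was read by the letters of its name. An E2F-type motif was in 6 of the 9 licensing and firing genes with a window (66.7%), in 4 of 6 E2F factors (66.7%), in 3 of 10 genes of G2 and mitosis (30.0%) and in 10.9% of all 27025 genes of the table. Over all phase groups 18 of 41 genes (43.9%) held 1 or more. The CHR was in 2 of 9 licensing and firing genes (22.2%), in 7 of 10 genes of G2 and mitosis (70.0%) and in 20.2% of all genes. The CCAAT box was in 7 of 9 licensing and firing genes (77.8%), in 9 of 10 genes of G2 and mitosis (90.0%) and in 41.1% of all genes. Different motif kinds overlapped in 3 of the 48 windows. A match describes letters and not a bound site.

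The windows of Mcm6 and Cdt1 are shown because these genes changed together in all 3 comparisons and held several E2F-type matches; they were chosen after the values were seen. Capitals mark matches on either strand, E2F type or CCAAT box, the second of which reads ATTGG when it lies on the other strand, and a run of 10 capitals holds an E2F-type match on each strand. Mcm6 (chr1:128359656-128359955, minus strand) held 5 E2F-type matches and 2 CCAAT boxes, and Cdt1 (chr8:122567765-122568064, plus strand) held 2 E2F-type matches. The windows of Mcm2, Mcm10 and Cdc45, not shown, held 0 E2F-type matches. In Interstitial over Sertoli these genes had log2 fold changes of 1.05, 0.68 and 1.01, beside 0.69 for Mcm6 and 1.14 for Cdt1. Any part of the motifs in the directions of these genes was not tested.
Mcm6: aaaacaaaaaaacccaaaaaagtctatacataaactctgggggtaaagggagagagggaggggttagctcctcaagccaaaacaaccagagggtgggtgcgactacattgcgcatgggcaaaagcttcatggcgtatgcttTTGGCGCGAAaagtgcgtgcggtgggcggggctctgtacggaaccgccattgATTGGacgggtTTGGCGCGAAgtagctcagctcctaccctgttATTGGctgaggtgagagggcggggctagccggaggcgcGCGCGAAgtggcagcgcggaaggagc
Cdt1: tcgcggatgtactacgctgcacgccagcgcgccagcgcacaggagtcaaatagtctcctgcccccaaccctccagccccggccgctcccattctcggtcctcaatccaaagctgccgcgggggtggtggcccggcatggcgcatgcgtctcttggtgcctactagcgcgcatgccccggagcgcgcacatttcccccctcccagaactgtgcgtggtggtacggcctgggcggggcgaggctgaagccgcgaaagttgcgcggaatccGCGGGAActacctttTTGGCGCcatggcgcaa

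Of the 3 DNA synthesis genes, Pcna and Rrm2 were lowest in Sertoli libraries, and Tyms was not called. In counts, 2 were higher and 0 lower in Leydig over Sertoli, and 0 were higher and 1 lower in Leydig over Interstitial. In Interstitial over Sertoli, 2 were higher and 0 lower. Calls covered 37.5%, 45.1% and 61.8% of all genes, so the count in Interstitial over Sertoli is near that share. Pcna, the sliding clamp of the replicative polymerases, was at 151, 171 and 165 CPM in Leydig libraries, at 191, 216 and 217 CPM in Interstitial libraries and at 116, 118 and 128 CPM in Sertoli libraries. The populations did not overlap. The fitted log2 fold change was 0.42 ± 0.08 in Leydig over Sertoli (adjusted p = 0.0037), -0.32 ± 0.08 in Leydig over Interstitial (adjusted p = 0.0117) and 0.74 ± 0.08 in Interstitial over Sertoli (adjusted p = 6.92e-05). The call against Interstitial was lost without Leydig replicate A and without Interstitial replicate B, at -0.25 to -0.23.

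Rrm2, the ribonucleotide reductase subunit made in S phase, was at 86.7, 87.1 and 87.4 CPM in Leydig libraries, at 94.6, 93.7 and 97.9 CPM in Interstitial libraries and at 61.1, 61.4 and 63.1 CPM in Sertoli libraries. Its Sertoli libraries stood well below the other 6, which differed little among themselves. The log2 fold change was 0.46 ± 0.06 in Leydig over Sertoli (adjusted p = 0.000282), -0.10 ± 0.06 in Leydig over Interstitial (adjusted p = 0.181) and 0.56 ± 0.06 in Interstitial over Sertoli (adjusted p = 4.17e-05). Tyms, thymidylate synthase, was not called in any comparison, with log2 fold changes of 0.14, 0.13 and 0.01.

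The genes of G2 and mitosis were mixed. Of these 12, 6 were higher and 1 was lower in Leydig over Sertoli. In Leydig over Interstitial, 1 was higher and 5 were lower, and in Interstitial over Sertoli 7 were higher and 1 was lower. Of all genes, 37.5%, 45.1% and 61.8% were called, so the totals called in both comparisons with Interstitial are near that share. By direction, 16.9%, 22.0% and 32.7% of all genes were higher and 20.6%, 23.2% and 29.1% lower. The 6 higher in Leydig over Sertoli became 3 without Sertoli replicate B, where the calls of Ccnb2, Bub1 and Melk were lost. Mki67, whose protein coats mitotic chromosomes and is the usual stain for cycling cells, was at 599, 577 and 601 CPM in Leydig libraries, at 555, 548 and 550 CPM in Interstitial libraries and at 419, 425 and 432 CPM in Sertoli libraries. Sertoli libraries were lowest, and Leydig libraries were above Interstitial libraries by a margin that was not called. Its log2 fold change was 0.44 ± 0.06 in Leydig over Sertoli (adjusted p = 0.000462), 0.11 ± 0.06 in Leydig over Interstitial (adjusted p = 0.177) and 0.33 ± 0.06 in Interstitial over Sertoli (adjusted p = 0.00116).

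Bub1, a kinase of the spindle checkpoint, was at 84.7, 93.8 and 85.1 CPM in Leydig libraries, at 132, 138 and 142 CPM in Interstitial libraries and at 71.7, 70.0 and 78.2 CPM in Sertoli libraries. No populations overlapped. The log2 fold change was 0.29 ± 0.07 in Leydig over Sertoli (adjusted p = 0.00957, lost without Sertoli replicate B at 0.27), -0.58 ± 0.07 in Leydig over Interstitial (adjusted p = 0.000263) and 0.87 ± 0.07 in Interstitial over Sertoli (adjusted p = 8.5e-06). Ccnb1 and Ccnb2, the B cyclins, were also lower in Leydig over Interstitial, at log2 fold changes of -0.56 ± 0.08 and -0.47 ± 0.08, and higher in Interstitial over Sertoli, at 0.70 ± 0.08 and 0.73 ± 0.08.

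Cdk1, the kinase that the B cyclins activate, went against them; it is named because its values stood out. It was at 118, 114 and 113 CPM in Leydig libraries, at 92.6, 83.0 and 93.4 CPM in Interstitial libraries and at 116, 120 and 119 CPM in Sertoli libraries. Interstitial libraries were below all others, and Leydig and Sertoli libraries overlapped. The log2 difference between populations was 0.41 ± 0.07 in Leydig over Interstitial (adjusted p = 0.00154) and -0.48 ± 0.07 in Interstitial over Sertoli (adjusted p = 0.00031), and -0.07 ± 0.07 in Leydig over Sertoli (adjusted p = 0.468). Aurka, a kinase of the spindle poles, was the group's 1 gene lower in Leydig over Sertoli, at a log2 fold change of -0.31 ± 0.09 (adjusted p = 0.0215), a call that 4 alternatives lost. Aurkb and Plk1, kinases of chromosome segregation, were not called in any comparison.

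The windows of Ccnb2 and Cdk1 are shown because cyclin B and its kinase moved in opposite directions between Interstitial and the other libraries. Capitals mark the CHR, the CCAAT box on either strand and, in Cdk1, the E2F type. Ccnb2 (chr9:70421505-70421804, minus strand) held 2 CHR matches and 3 CCAAT boxes. Cdk1 (chr10:69352863-69353162, minus strand) held 2 CHR matches, 3 CCAAT boxes and 2 E2F-type matches. The window of Ccnb1, the other B cyclin, is not shown and held 0 CHR matches, 2 CCAAT boxes and 1 E2F-type match. Any part of these elements in the directions of the genes was not tested.
Ccnb2: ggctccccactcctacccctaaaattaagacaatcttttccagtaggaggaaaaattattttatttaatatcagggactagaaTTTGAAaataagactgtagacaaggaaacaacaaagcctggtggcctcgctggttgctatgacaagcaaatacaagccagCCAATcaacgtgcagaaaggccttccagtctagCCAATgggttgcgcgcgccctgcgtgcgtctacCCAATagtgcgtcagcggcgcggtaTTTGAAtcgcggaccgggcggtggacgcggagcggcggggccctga
Cdk1: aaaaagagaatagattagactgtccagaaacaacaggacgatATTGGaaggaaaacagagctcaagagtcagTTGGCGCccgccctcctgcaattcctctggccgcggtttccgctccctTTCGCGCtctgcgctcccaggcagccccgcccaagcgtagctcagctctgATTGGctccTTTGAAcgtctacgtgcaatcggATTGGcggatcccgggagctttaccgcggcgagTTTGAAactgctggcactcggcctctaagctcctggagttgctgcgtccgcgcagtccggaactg

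Other genes of the same pathways were described from lists beside the 51 genes. Of 45 other replication genes tested, 26 were higher and 0 lower in Leydig over Sertoli, 3 were higher and 30 lower in Leydig over Interstitial, and 36 were higher and 0 lower in Interstitial over Sertoli, with median log2 fold changes of 0.27, -0.32 and 0.60. Over all genes, 16.9% were higher and 20.6% lower in Leydig over Sertoli, 22.0% and 23.2% in Leydig over Interstitial, and 32.7% and 29.1% in Interstitial over Sertoli. Among them Orc1, a subunit of the origin recognition complex, had log2 fold changes of -0.99 ± 0.13 in Leydig over Interstitial and 1.36 ± 0.14 in Interstitial over Sertoli. On the same scale Rfc5, of the clamp loader, was at 1.27 ± 0.07 in Interstitial over Sertoli, Rpa2, which coats single-stranded DNA, at -0.87 ± 0.09 in Leydig over Interstitial, and Prim1, the primase, at 0.79 ± 0.09 in Leydig over Sertoli. Dck, a kinase of nucleotide salvage, had a log2 fold change of 0.59 ± 0.09 in Leydig over Sertoli. All of these passed the test.

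Of 51 other mitosis genes tested, out of 52 listed, 21 were higher and 3 lower in Leydig over Sertoli, 5 were higher and 25 lower in Leydig over Interstitial, and 31 were higher and 4 lower in Interstitial over Sertoli, with median log2 fold changes of 0.15, -0.19 and 0.32. Of all genes, 16.9%, 22.0% and 32.7% were higher and 20.6%, 23.2% and 29.1% lower in these comparisons. In Interstitial over Sertoli 61.8% of all genes were called, so the total called there is near that share. Mybl2, a factor that switches on G2 and mitosis genes, was at 30.6, 44.7 and 32.0 CPM in Leydig libraries, at 104, 114 and 98.3 CPM in Interstitial libraries and at 26.7, 23.6 and 23.3 CPM in Sertoli libraries. Its log2 fold change was 0.54 ± 0.16 in Leydig over Sertoli, -1.52 ± 0.15 in Leydig over Interstitial and 2.06 ± 0.16 in Interstitial over Sertoli. Cdc25b, a phosphatase that activates CDKs, had log2 fold changes of 0.99 ± 0.13 in Leydig over Sertoli and 1.28 ± 0.13 in Interstitial over Sertoli. Ccnb3 had a log2 fold change of -1.49 ± 0.45 in Leydig over Interstitial, where all 9 libraries lay below 0.6 CPM.

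Of the 28 other G1 and exit regulators, 5 were higher and 6 lower in Leydig over Sertoli, 5 and 8 in Leydig over Interstitial and 8 and 7 in Interstitial over Sertoli. With 37.5%, 45.1% and 61.8% of all genes called, these counts are near or below the share of all genes and say nothing particular to the list. Gas1, a membrane protein linked to growth arrest, was at 76.0, 82.7 and 86.0 CPM in Leydig libraries, at 133, 138 and 133 CPM in Interstitial libraries and at 20.1, 22.5 and 20.0 CPM in Sertoli libraries. It had a log2 fold change of 1.85 ± 0.08 in Leydig over Sertoli, -0.75 ± 0.07 in Leydig over Interstitial and 2.61 ± 0.08 in Interstitial over Sertoli. Gadd45g, a stress response gene that mouse testis determination requires, ran the opposite way, with log2 fold changes of -1.18 ± 0.18 in Leydig over Sertoli, 1.32 ± 0.19 in Leydig over Interstitial and -2.51 ± 0.19 in Interstitial over Sertoli.

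Erythroid, germ cell, macrophage and leukocyte, and mesonephric and coelomic markers summed highest in Interstitial libraries, where most replication genes were highest. Endothelial marker sums of Interstitial and Leydig libraries overlapped, and interstitial progenitor markers summed highest in Leydig libraries. Erythroid markers (13 genes) summed to 166 to 589 CPM in Leydig libraries, 14100 to 14800 CPM in Interstitial libraries and 167 to 472 CPM in Sertoli libraries. Of the 13, 12 were called lower in Leydig over Interstitial, and 12 were called higher in Interstitial over Sertoli. The gene not called was Epor in the former and Klf1 in the latter. Klf1 was at 1.53, 1.86 and 1.57 CPM in Interstitial libraries and at 2.30, 2.35 and 1.97 CPM in Sertoli libraries. Germ cell markers summed to 96.4 to 295 CPM in Leydig libraries, 1010 to 1130 CPM in Interstitial libraries and 91.2 to 128 CPM in Sertoli libraries. All 11 tested were called lower in Leydig over Interstitial and higher in Interstitial over Sertoli. Macrophage and leukocyte markers summed to 24.7 to 39.6 CPM in Leydig libraries, 69.2 to 106 CPM in Interstitial libraries and 8.84 to 9.77 CPM in Sertoli libraries, with 10 of 11 called lower in Leydig over Interstitial and 11 of 11 higher in Interstitial over Sertoli. Mesonephric and coelomic markers summed to 97.8 to 110 CPM in Leydig libraries, 285 to 290 CPM in Interstitial libraries and 23.3 to 26.8 CPM in Sertoli libraries, with 10 of 10 called in these directions. Endothelial markers (11 genes) summed to 255 to 293 CPM in Leydig libraries, 268 to 311 CPM in Interstitial libraries and 51.4 to 54.4 CPM in Sertoli libraries. Of them 6 were called higher and 2 lower in Leydig over Interstitial, and 10 higher and 0 lower in Interstitial over Sertoli. Interstitial progenitor markers (8 genes) summed to 1630 to 1840 CPM in Leydig libraries, 1300 to 1360 CPM in Interstitial libraries and 455 to 476 CPM in Sertoli libraries. Here 5 were called higher and 1 lower in Leydig over Interstitial, and 7 higher and 0 lower in Interstitial over Sertoli. Beside all these marker lists, 22.0% of all genes tested were higher and 23.2% lower in Leydig over Interstitial. In Interstitial over Sertoli these shares were 32.7% and 29.1%. The marker at 0 was Ptprc, in 1 Sertoli library. The part of these cells in the levels of the 51 genes was not tested, and in bulk libraries more cells of a type cannot be told apart from more RNA per cell.

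Within the Leydig libraries, replicate B held 3.06 times the germ cell and 3.55 times the erythroid marker sum of replicate A. Its fetal Leydig marker sum was 0.652 times that of A. The licensing and firing sum of replicate B was 1.06 times that of A, and the median log2 ratio of B to A over the 51 genes was 0.02. In Sertoli libraries the ratio of B to A was 2.84 for erythroid and 0.71 for germ cell markers. In Interstitial libraries these ratios were 1.03 and 1.12. Without Leydig replicate B, 25 genes were higher and 1 lower in Leydig over Sertoli, and 7 were higher and 27 lower in Leydig over Interstitial.

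**Figure D5:**
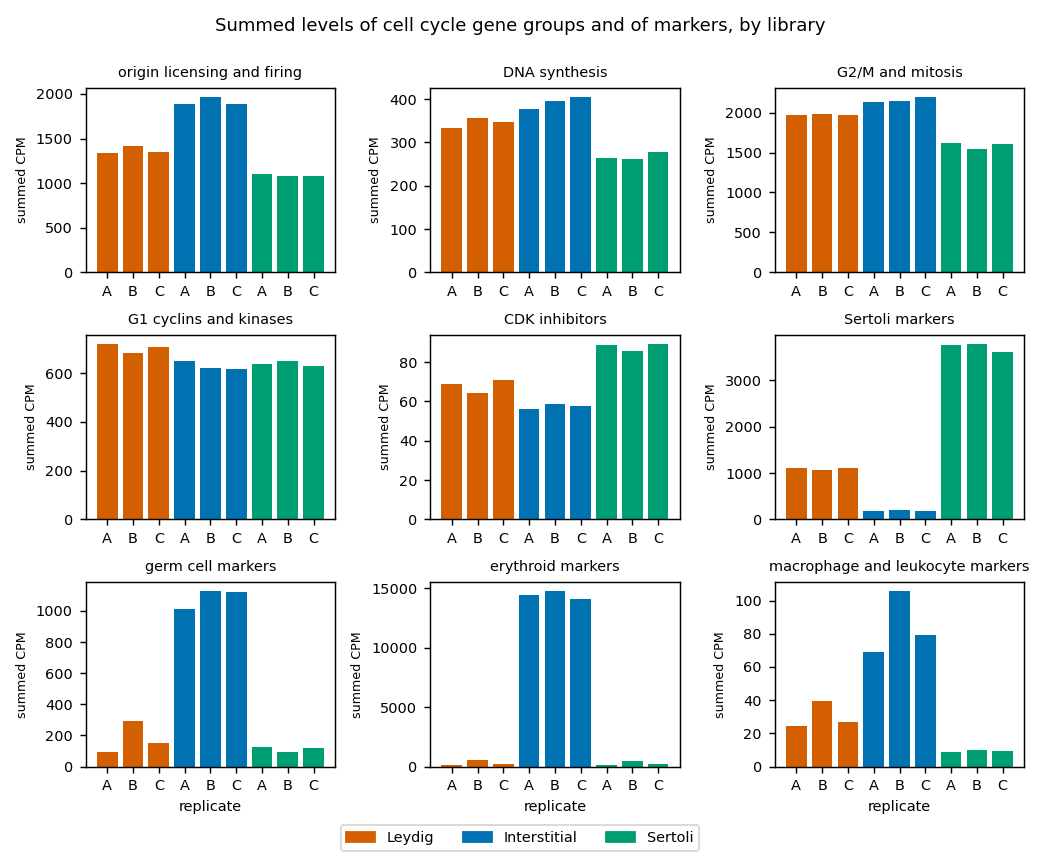
Summed TMM-normalised CPM (vertical axes from 0, which differ between panels) of 5 phase groups and of 4 marker lists in each library, replicates A, B and C of Leydig, Interstitial and Sertoli. Licensing and firing genes stand at 1890 to 1970 CPM in Interstitial libraries, against 1080 to 1100 CPM in Sertoli libraries, and erythroid markers at 14100 to 14800 CPM against 167 to 472 CPM.

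The plot of summed levels sets the phase groups beside the marker lists. Genes of G2 and mitosis summed to 1970 to 1980 CPM in Leydig libraries, 2130 to 2200 CPM in Interstitial libraries and 1550 to 1620 CPM in Sertoli libraries, and DNA synthesis genes to 333 to 356 CPM in Leydig, 378 to 406 CPM in Interstitial and 262 to 278 CPM in Sertoli libraries. CDK inhibitors, of which Cdkn1b is the largest term, summed to 64.1 to 70.8 CPM in Leydig libraries, 56.0 to 58.9 CPM in Interstitial libraries and 85.6 to 89.4 CPM in Sertoli libraries. The phase group sums differed by less than 2-fold between populations. Erythroid sums of Interstitial libraries stood more than an order of magnitude above the others, while those of Leydig and Sertoli libraries overlapped.

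The authors' deposited table for Interstitial over Sertoli lists 8 of the 51 genes, all higher: Cdkn1a, Cdkn2a, E2f2, E2f8, Ccne1, Cdt1, Mcm2 and Cdc45, at log2 fold changes of 1.04 to 4.26. Their deposited table for Leydig over Interstitial lists 3, all lower: Cdkn1a at -1.40, Cdkn2a at -3.29 and E2f2 at -1.34. The authors' deposited table for Leydig over Sertoli lists none of them, and these tables hold only genes with a log2 fold change of at least 1 in size and an adjusted p under 0.05. The largest called change in Leydig over Sertoli here was that of Ccne1, at 0.86.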

How the data were processed

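RNA was sequenced from 3 sorted populations with 3 libraries each, from 100 ng of RNA with ribosomal depletion and a kit that keeps strand, per the labels' protocols. The count table that the authors deposited holds raw reads per gene for each of the 4 lanes of a library. Per the submitters' processing notes, reads were aligned with TopHat2 2.0.6 to mm10 and counted with HTSeq. The sources used here do not give the annotation release or the strand setting. The authors' deposited limma tables give log2 fold changes, p-values and adjusted p-values, and t and log odds scores, per the file headers. Their scores were not used.

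Counts were summed over lanes, and 5 summary lines were left out (reads outside genes 32.23 to 38.52%, ambiguous reads 0.62 to 0.77%). Replicates A and B of all populations were fitted together with edgeR 4.0.16 in R 4.3.3 (glmQLFit, glmQLFTest, TMM, filterByExpr, 3 residual degrees of freedom, common biological coefficient of variation 0.0871), which left 18048 genes. The fit was tested on simulated counts. SE is the absolute log2 fold change over the square root of F. CPM uses TMM factors over all 9 libraries and fold changes those of the 6 tested, which moves Sertoli levels by a few percent. RPKM is CPM per kilobase of merged exons in GENCODE M21 (GRCm38, the same assembly as mm10), which also gave symbols and coordinates. 

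The 51 genes and all lists were chosen with earlier results of these data known. Values per library are given for the 3 D cyclins, all CDK inhibitors and, in each phase group, the called gene with the largest absolute log2 fold change per comparison, and for Cdk1, E2f6 and Mcm2, chosen after their values were seen. From the other pathway lists, the 2 called genes with the largest change per comparison are named. Alternatives were RLE factors, library size alone, DESeq2 1.42.0, limma voom 3.58.1, no filter, a filter at 1 CPM, all 9 libraries, a replicate block, no mitochondrial genes, and leaving out each library.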

Additional observations from a re-analysis of the deposited data

How the results depend on the processing

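No log2 fold change of a called gene reversed under any of the 15 alternatives run. Of the calls, 15 of 28 in Leydig over Sertoli, 22 of 32 in Leydig over Interstitial and 38 of 41 in Interstitial over Sertoli were made under every alternative. Leaving out 1 library at a time gave 17 to 26 genes higher and 1 to 3 lower in Leydig over Sertoli (25 and 3 with all), 4 to 7 higher and 20 to 27 lower in Leydig over Interstitial (6 and 26), and 34 to 35 higher and 5 to 8 lower in Interstitial over Sertoli (34 and 7). The 1 gene left lower in Leydig over Sertoli came without Leydig replicate B, and the lone library left in a population is then assumed to vary like the others. Adding replicate C to the fit gave 33 higher and 4 lower in Leydig over Sertoli, 9 and 33 in Leydig over Interstitial, and 36 and 7 in Interstitial over Sertoli. Calls over all genes rose too, from 6762, 8146 and 11155 to 9160, 10791 and 13065 in these comparisons. That fit counts replicate C, taken as a mix of A and B, as an independent library, so its added calls are no added support. With the replicate block, 27 genes were higher and 3 lower in Leydig over Sertoli, 8 and 27 in Leydig over Interstitial, and 35 and 7 in Interstitial over Sertoli. Calls over all genes with the block were 7839, 9364 and 12013. The differences between replicates A and B correlated across genes at 0.135 (Leydig and Sertoli), 0.338 (Leydig and Interstitial) and 0.201 (Interstitial and Sertoli); the letters were not treated as pairs, since the labels tie them to no shared batch and C is a mix. Depth limits Cdkn2b and, outside Interstitial libraries, Cdkn2a, with 3 to 16 reads in each Leydig and Sertoli library.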

Other observations

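Replicate C lay between A and B for 26 of the 51 genes in Leydig libraries, 15 in Interstitial libraries and 22 in Sertoli libraries. An unrelated library would also lie between A and B for some genes by chance, and these counts do not settle whether replicate C is the mix. The median log2 ratio of replicate B to replicate A over the 51 genes was 0.02 in Leydig, 0.07 in Interstitial and -0.03 in Sertoli libraries. The widest ratios were 1.81 in Leydig and 1.19 in Interstitial libraries, both for Cdkn2b, and 0.65 in Sertoli libraries for Cdkn2a.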
